A study of Mus musculus with 24 samples.

Results

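The genes described here are 10 components of the mouse MHC class I antigen presentation pathway. They are the class I heavy chains H2-D1 and H2-K1, their light chain B2m, the peptide transporter subunits Tap1 and Tap2, the loading factor Tapbp, the catalytic immunoproteasome subunits Psmb8, Psmb9 and Psmb10, and the class I transactivator Nlrc5. They were taken by symbol, through the match of the table's Ensembl identifiers to GENCODE M21, and all 10 were found among the 54532 genes of the deposited table. All 10 had an FPKM of 1 or more in 24 of 24 libraries. FPKM is a read count divided by exon length and by the size of the library, so levels of different genes share a scale. The 10 are thus among the 11377 genes that were tested, which had to reach an FPKM of 1 in 4 libraries or more.

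Messenger RNA was sequenced from bone marrow macrophages of C57BL/6 mice, either wild type (WT) or Trem2(-/-) (KO), differentiated for 7 days in medium conditioned by L929 fibroblasts. Trem2 is a lipid-sensing surface receptor of macrophages. In both genotypes 1 group was untreated, 1 received sphingosine-1-phosphate (S1P) at 500 nM for 24 hours, and 1 received ACM for 24 hours, with 4 libraries in each of the 6 groups. ACM is serum-free medium taken off apoptotic AML12 hepatocytes, a line of mouse origin that had been treated with palmitate at 800 µM. Neither the knockout allele nor the medium and vehicle of untreated cells is stated in the sources used here, and no group received medium of AML12 cells that had no palmitate. Since no label ties a library to a culture, an animal or a batch, p-values reflect library-to-library spread within groups, part of which may be technical. Library numbers run in a separate block for each group, and what the numbers stand for is not stated.

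MHC class I molecules display peptides from proteins made inside a cell to CD8 T cells. The proteasome cuts those proteins, and in cells exposed to interferon its constitutive catalytic subunits Psmb5, Psmb6 and Psmb7 are replaced by Psmb8, Psmb9 and Psmb10. The transporter formed by Tap1 and Tap2 carries the peptides into the endoplasmic reticulum, where Tapbp (tapasin) holds empty class I molecules beside the transporter until a peptide is bound. Nlrc5 binds, through partner factors, to the SXY module of class I promoters. Macrophages express the whole pathway and raise it in response to interferons.

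On GRCm38, 7 of the 10 genes lie on chromosome 17 in the major histocompatibility complex. H2-K1 (ENSMUSG00000061232) spans 33996017 to 34000347, Tapbp (ENSMUSG00000024308) 33915899 to 33929292, and H2-D1 (ENSMUSG00000073411) 35262730 to 35267499. Psmb9 (ENSMUSG00000096727, 34181987 to 34187764), Tap1 (ENSMUSG00000037321, 34187553 to 34197225), Psmb8 (ENSMUSG00000024338, 34197721 to 34201454) and Tap2 (ENSMUSG00000024339, 34203527 to 34216321) follow each other in a row. Nlrc5 (ENSMUSG00000074151, 94434356 to 94527272) and Psmb10 (ENSMUSG00000031897, 105935735 to 105938444) are on chromosome 8, and B2m (ENSMUSG00000060802, 122147686 to 122153083) is on chromosome 2. All are protein coding. Trem2, the gene targeted in the KO mice, is also on chromosome 17 (48346401 to 48354147), 13.1 Mb from H2-D1, the nearest of the 10.

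Promoter sequences are shown for the heavy chains, B2m and Tap1, since class I promoters share known elements. These were not the only genes that rose under ACM in WT cells. Tapbp, Psmb8 and Psmb10 rose too, and their windows are described below but not shown. Tap2 and Nlrc5 also rose, but no RefSeq window was found for them. Each window holds 250 bases before and 50 after a RefSeq transcription start on GRCm38.p6 and is written 5′ to 3′ on the strand of the gene. The windows are chr17:35262844-35263143 (plus strand), chr17:34000284-34000583 (minus), chr2:122147437-122147736 (plus) and chr17:34187306-34187605 (plus). Capitals mark the letters of 5 motifs searched on both strands, namely GGGATTCCC (from the kappa B site of enhancer A), TTTCACTTC (from the interferon element of class I heavy chains), GAAANNGAA (paired sites of the IRF factors), TGACG (the X2 box of the SXY module) and ATTGG (its Y box).
H2-D1: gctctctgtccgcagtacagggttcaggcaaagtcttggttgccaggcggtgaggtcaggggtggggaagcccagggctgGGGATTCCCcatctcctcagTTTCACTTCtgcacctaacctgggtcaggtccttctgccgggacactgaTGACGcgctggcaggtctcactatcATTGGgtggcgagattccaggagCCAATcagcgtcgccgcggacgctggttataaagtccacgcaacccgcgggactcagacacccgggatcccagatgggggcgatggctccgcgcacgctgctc
H2-K1: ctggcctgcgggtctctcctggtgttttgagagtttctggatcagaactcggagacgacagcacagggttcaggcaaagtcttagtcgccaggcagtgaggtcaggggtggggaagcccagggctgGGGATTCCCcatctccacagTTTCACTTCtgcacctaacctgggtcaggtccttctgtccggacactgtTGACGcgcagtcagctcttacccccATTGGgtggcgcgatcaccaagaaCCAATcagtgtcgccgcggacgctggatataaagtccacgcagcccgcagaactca
B2m: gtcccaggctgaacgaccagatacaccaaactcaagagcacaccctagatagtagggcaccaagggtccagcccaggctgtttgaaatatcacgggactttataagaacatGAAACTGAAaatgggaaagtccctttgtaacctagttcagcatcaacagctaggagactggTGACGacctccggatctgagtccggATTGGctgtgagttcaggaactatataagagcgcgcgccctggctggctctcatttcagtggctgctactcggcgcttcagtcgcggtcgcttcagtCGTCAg
Tap1: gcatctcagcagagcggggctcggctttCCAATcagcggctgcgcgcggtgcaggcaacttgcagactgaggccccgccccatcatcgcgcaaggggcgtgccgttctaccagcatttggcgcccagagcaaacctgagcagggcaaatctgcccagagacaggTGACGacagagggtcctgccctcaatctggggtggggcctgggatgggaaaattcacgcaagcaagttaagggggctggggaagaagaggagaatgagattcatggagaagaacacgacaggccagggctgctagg

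The H2-D1 window holds the kappa B letters at -170 and the interferon letters at -150, counted from the start site, followed by TGACG at -101 and ATTGG at -76. H2-K1 holds the same letters in the same order at -124, -104, -55 and -30. At their best ungapped alignment the H2-D1 and H2-K1 windows shown share 180 of 254 bases (70.9%). H2-K1 has another RefSeq start, whose window (chr17:34000298-34000597) is not shown. Counted from that start the same letters lie at -110, -90, -41 and -16. That window shares 176 of 240 bases (73.3%) with H2-D1. The kappa B letters occur in 0.353% and the interferon letters in 0.507% of 32544 promoter windows of the same length. B2m has GAAANNGAA at -139, a motif found in 8.53% of windows, and TGACG and ATTGG at -78 and -53. Tap1 has TGACG at -86 and ATTGG on the other strand at -222. Its window shares 275 bases with that of Psmb9, which is read from the opposite strand. TGACG is in 20.9% and ATTGG in 37.4% of all windows, and both are in 7.76%, so these short letters are common. ATTGG also lies on the other strand of the H2-D1 (-53) and H2-K1 (-6) windows, and TGACG on that of B2m (45). Windows were also found for Tapbp, which holds only ATTGG, for Psmb8, which holds only TTCNNNGAA (a STAT site, in 8.33% of windows) at -97, and for Psmb10, which holds none of the motifs searched. With Psmb9 that makes 8 of 10 genes, Tap2 and Nlrc5 having no window. These matches describe the letters of the windows, and binding was not measured.

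The deposited values imply library sizes of 16.6 to 25.2 M reads. Reads recovered from them summed to between 17.3 M (KO ACM 87) and 26.2 M (WT S1P 26) in a library. The 10 genes had from 1027 reads (Psmb9) to 90541 reads (H2-D1) in a library. Trem2 had an FPKM of 74.5 to 82.7 in WT untreated cells and 35.7 to 40.2 in 3 of the KO untreated libraries, and 36.8 to 40.7 in the KO ACM and KO S1P libraries, lower than in WT but far above 0. With the allele not stated, it is not known which reads of Trem2 a KO cell should lack. The library labelled KO untreated 81 had 79.6, so it goes against its label. Comparisons of the 10 genes with KO untreated cells are given with and without it. All 8 macrophage markers had a mean FPKM of at least 1 in every group, with a summed FPKM, mostly Lyz2, of 7831 to 8154 in WT untreated, 6454 to 7109 in WT ACM and 4726 to 6370 in WT S1P cells. The sum was 4746 to 5331 in KO libraries, apart from 6642 in the library labelled KO untreated 81. Of the hepatocyte markers only Afp reached 1, the list summing to at most 3.51, and 0 of the dendritic cell, lymphoid and fibroblast markers did, with sums of at most 1.42, 0.302 and 0.0797. Granulocyte markers summed to between 5.54 and 10.9 FPKM in WT libraries and between 20.5 and 23.6 in KO libraries under ACM or S1P. In KO untreated cells their sum was 15.7 to 21.1 in 3 libraries and 7.00 in the library labelled KO untreated 81. In bulk samples fewer cells of a type and less RNA per cell cannot be told apart.

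FPKM is per length, so levels can be set against each other. In WT untreated cells B2m was highest, at a mean FPKM of 2364 ± 48.4 (SD, n = 4), followed by H2-D1 at 856 ± 35.5 and H2-K1 at 561 ± 14.8. Tapbp stood at 113 ± 2.27, Psmb8 at 56.0 ± 0.568, Psmb10 at 43.3 ± 2.61 and Tap1 at 32.2 ± 0.141. Psmb9 (20.3 ± 1.31) and Tap2 (19.6 ± 0.799) overlapped, and Nlrc5 was lowest at 10.9 ± 0.255. Every other pair of neighbours in this order was separated in all 4 libraries. The order of the highest 7 genes was the same in all 6 groups. Tap2 lay above Psmb9 with no overlap in WT ACM, WT S1P and KO S1P cells, and Nlrc5 and Psmb9 overlapped in WT S1P cells.

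**Figure D1:**
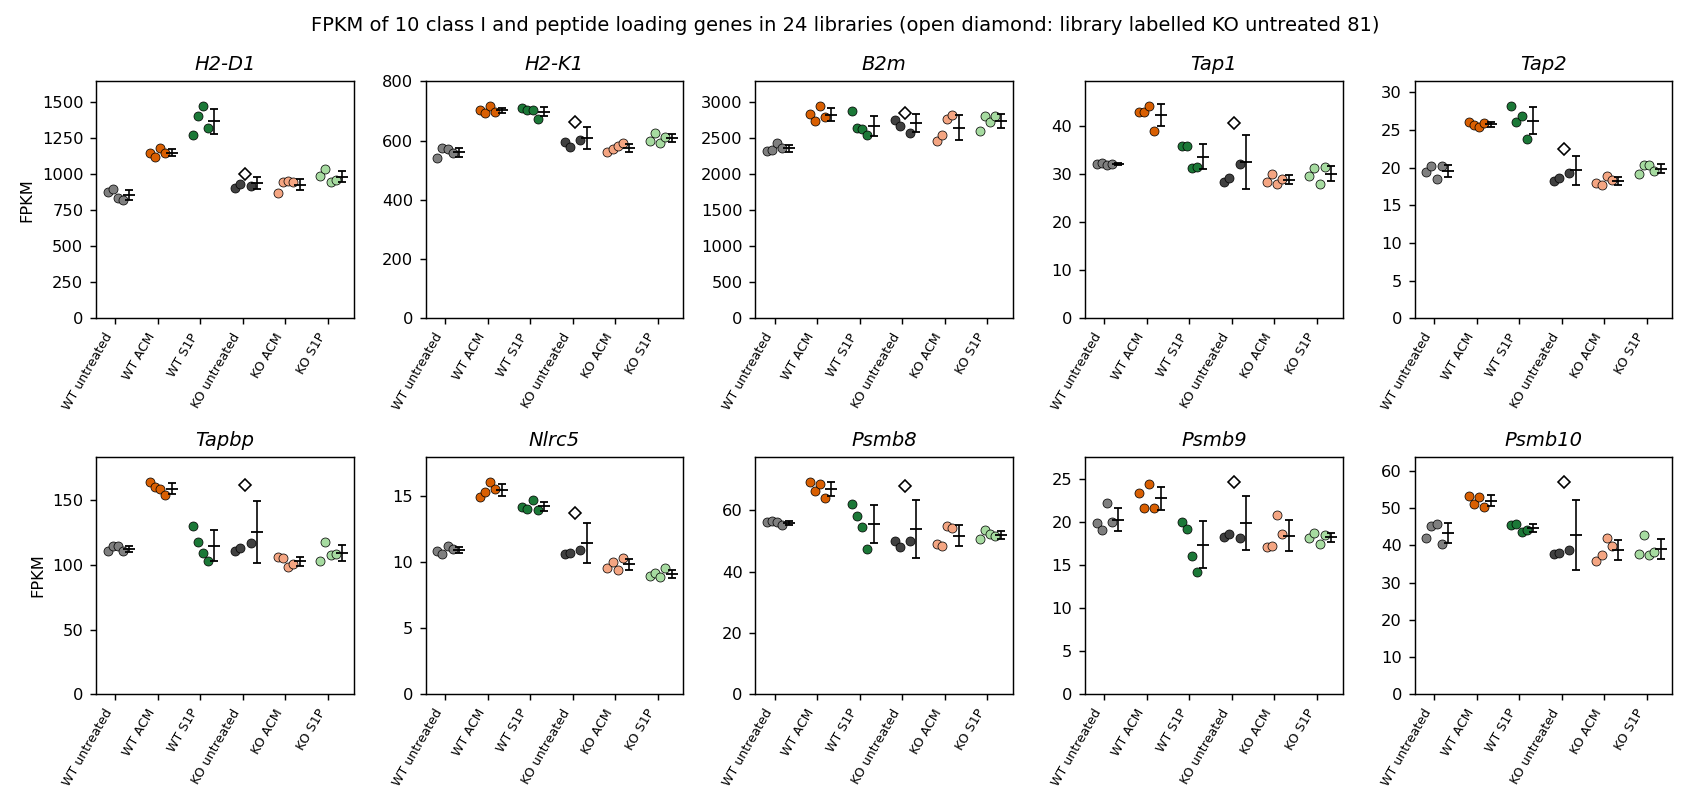
FPKM of each of the 10 genes (vertical axis, linear, from 0) in the 4 libraries of each of 6 groups (horizontal axis), with points for libraries and bars for the mean and SD of all 4, the library labelled KO untreated 81 included and drawn as an open diamond. For Nlrc5, WT ACM libraries sit at 15.0 to 16.1 and WT S1P libraries at 13.9 to 14.7, above WT untreated libraries (10.6 to 11.2), KO ACM libraries (9.44 to 10.3) and KO S1P libraries (8.87 to 9.56).

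The first comparison asked what medium of dying hepatocytes does to the pathway in WT macrophages. Of the 10 genes 9 rose and 0 fell, where 22.1% of all genes tested were called, 12.2% as higher and 9.85% as lower. The median difference of the 10 was 0.35 on the log2(FPKM + 1) scale, beside -0.00 over all genes. Rises ran from 0.26 (Psmb8) to 0.50 (Tapbp) on that scale. In percent of the untreated mean FPKM they ran from 19.7% (B2m) to 41.7% (Nlrc5), with Tapbp at 41.4%. The share of higher calls over all genes depends on scaling, with 1390 higher and 1121 lower as deposited, 484 and 2662 after rescaling to TPM, and 1003 and 1922 with voom on recovered reads.

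H2-D1 had an FPKM of 876, 895, 832 and 821 in the WT untreated libraries and of 1145, 1118, 1182 and 1144 with ACM. All 4 ACM libraries lay above all untreated ones, and the difference was 0.42 ± 0.05 (SE; adjusted p = 1.78e-06). H2-K1, the other classical heavy chain, had 541, 574, 571 and 557 untreated and 703, 693, 715 and 697 with ACM. It rose by 0.32 ± 0.03 (adjusted p = 1.23e-06), again with no overlap. How many of all genes had no overlap in this comparison was not counted. At an unadjusted p under 0.05 with limma there were 9 of the 10, beside 3922 of all 11377 genes. B2m, which every class I molecule needs to fold, had 2324, 2332, 2431 and 2367 untreated and 2843, 2734, 2942 and 2797 with ACM. Its rise of 0.26 ± 0.05 (adjusted p = 0.000337) was -0.01 under quantile normalization, and it was not called after TPM scaling (0.14, adjusted p = 0.202) or with no filter on low genes (adjusted p = 0.0908).

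Among the peptide loading genes, Tapbp had 111, 114, 115 and 111 in untreated cells and 164, 160.0, 159 and 154 with ACM. This was the largest of the 10 differences on the log2(FPKM + 1) scale (0.50 ± 0.08, adjusted p = 0.000278). Tap1 had 32.1, 32.3, 32.0 and 32.2 untreated and 43.1, 43.1, 44.1 and 39.0 with ACM, a rise of 0.38 ± 0.08 (adjusted p = 0.00106). Tap2 had 19.4, 20.3, 18.6 and 20.2 untreated and 26.1, 25.7, 25.4 and 25.99 with ACM. Both subunits of the transporter thus rose by the same 0.38, Tap2 with SE 0.05 and adjusted p = 2.21e-05. Nlrc5, the class I transactivator, had 10.8, 10.6, 11.2 and 10.96 untreated and 15.0, 15.3, 16.1 and 15.5 with ACM. The groups did not overlap, though the share of all genes without overlap was not counted. Nlrc5 rose by 0.47 ± 0.05 (adjusted p = 3.25e-06).

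The immunoproteasome subunits had differences of 0.16 to 0.26. Psmb8, the counterpart of Psmb5, had 56.2, 56.4, 56.2 and 55.1 untreated and 69.2, 66.2, 68.7 and 64.2 with ACM. It rose by 0.26 ± 0.08 (adjusted p = 0.0302), and Psmb10, the counterpart of Psmb7, by 0.26 ± 0.09 (adjusted p = 0.0404), from 41.9, 45.3, 45.7 and 40.3 to 53.4, 51.2, 53.1 and 50.4. Neither gene overlapped between the groups, and the share of all genes without overlap was not counted. Psmb9, the counterpart of Psmb6, had 19.9, 19.1, 22.2 and 19.98 against 23.4, 21.7, 24.4 and 21.7, with overlap, and did not pass (0.16 ± 0.09, adjusted p = 0.245). The calls of Psmb8 and Psmb10 were lost after TPM scaling (0.14, adjusted p = 0.290, and 0.15, adjusted p = 0.324) and with no filter (adjusted p = 0.0775 and 0.101). The Psmb8 call was also lost without any 1 of the 4 WT untreated libraries or of WT ACM 19, 20 and 21 (0.24 to 0.26, adjusted p = 0.0508 to 0.0724), and that of Psmb10 without WT untreated 1 or 4 or any 1 of the 4 WT ACM libraries (0.23 to 0.28, adjusted p = 0.0578 to 0.111).

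**Figure D2:**
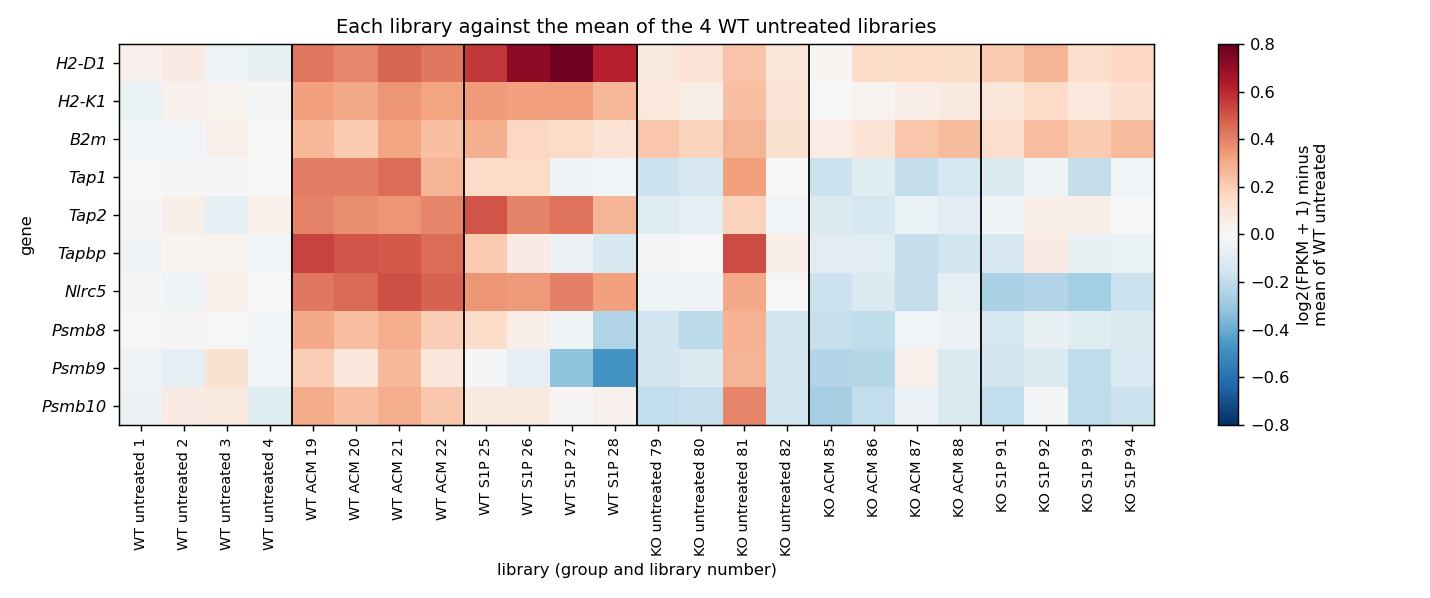
Colour gives log2(FPKM + 1) of each library (columns, by group and library number) minus the mean of the 4 WT untreated libraries, for the 10 genes (rows), with red above and blue below and the scale running from -0.8 to 0.8. WT ACM libraries are red in every row, WT S1P libraries are red for H2-D1, H2-K1, B2m, Tap2 and Nlrc5, and the library labelled KO untreated 81 is red in every row, unlike the other KO untreated libraries.

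The same medium was then examined in KO macrophages. With limma 0 of the 10 genes passed in KO ACM against KO untreated cells, where 0.00879% of all genes tested were called, and 0 passed with voom. At an unadjusted p under 0.05 with limma there were 3 of the 10, beside 1043 of all 11377 genes. The differences ran from -0.27 (Tapbp) to -0.02 (H2-D1). Without the library labelled KO untreated 81 they ran from -0.14 (Tapbp) to 0.06 (Psmb8), 0 passed, and 0.044% of all genes were called, 0.0176% as higher and 0.0264% as lower. H2-D1 had 904, 928 and 915 in the other KO untreated libraries, 1002 in the library labelled KO untreated 81, and 866, 946, 949.9 and 946 with ACM, so the groups overlapped. Nlrc5 had 10.6, 10.7 and 10.9, 13.7 in library 81, and 9.57, 10.0, 9.44 and 10.3 with ACM. Its difference of -0.11 ± 0.03 without library 81 did not pass (adjusted p = 0.314). In the library labelled KO untreated 81, Tapbp (162), Tap1 (40.7), Psmb8 (68.1) and B2m (2849) lay inside the range of the WT ACM libraries, and Psmb9 (24.6) and Psmb10 (57.0) lay above it. H2-D1 (1002), H2-K1 (663), Tap2 (22.4) and Nlrc5 (13.7) lay below it.

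Set directly against each other under ACM, KO cells had less of 9 of the 10 transcripts than WT cells and more of 0, where 28% of all genes were called, 12.5% as higher and 15.5% as lower. The median of the 10 was -0.39, beside 0.01 over all genes. Tapbp differed most on the log2(FPKM + 1) scale, at 106, 106, 98.7 and 101 in KO ACM against 154 to 164 in WT ACM cells (-0.63 ± 0.08, adjusted p = 1.3e-05). In percent of the WT ACM mean FPKM the difference was -36.4% for Nlrc5 and -35.4% for Tapbp. Nlrc5 was lower by -0.60 ± 0.05 (adjusted p = 1.32e-07) and Tap1 by -0.53 ± 0.08 (adjusted p = 2.21e-05), the latter at 28.5, 30.04, 28.1 and 29.1 against 39.0 to 44.1. Tap2 (18.0, 17.7, 18.9 and 18.4) was lower by -0.48 ± 0.05 (adjusted p = 1.04e-06). The groups did not overlap for any of these 4 genes, and the share of all genes without overlap was not counted. KO ACM libraries were also lower for Psmb10 (-0.42 ± 0.09), Psmb8 (-0.37 ± 0.08), H2-D1 (-0.31 ± 0.05) and H2-K1 (-0.28 ± 0.03), with adjusted p from 4.26e-06 to 0.00177. Psmb9 was lower by -0.29 ± 0.09 (adjusted p = 0.0228), a call lost after TPM scaling (-0.24, adjusted p = 0.121), with no filter (adjusted p = 0.0586) and without WT ACM 19 or 21 or KO ACM 85 or 86 (-0.28 to -0.26, adjusted p = 0.0540 to 0.0705). B2m had 2466, 2553, 2761 and 2819 in KO ACM cells, overlapping WT ACM cells, and did not pass (-0.10 ± 0.05, adjusted p = 0.122). Over all genes 1421 were higher and 1765 lower, against 1665 and 1000 after TPM scaling and 2253 and 1344 with voom.

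The genotype by ACM interaction asks whether the response to ACM itself differed. It was called for 8 of the 10 genes, all with a smaller value in KO cells, where 17.1% of all genes were called, 9.64% in that direction and 7.41% in the other. Tapbp (-0.77 ± 0.12), Nlrc5 (-0.66 ± 0.08) and Tap1 (-0.54 ± 0.11) had the largest interactions, and H2-D1, H2-K1, B2m and Tap2 had -0.29 to -0.48. Psmb8 (-0.31 ± 0.12, adjusted p = 0.0753) and Psmb9 (-0.26 ± 0.13, adjusted p = 0.194) did not pass. With library 81 left out they had -0.19 ± 0.08 and -0.16 ± 0.12 and did not pass either (adjusted p = 0.134 and 0.401). Psmb8 passed without WT S1P 28 or KO untreated 80 (adjusted p = 0.0482 and 0.0422). With library 81 left out, 8 genes were again called, where 14.9% of all genes were, 8.74% as negative and 6.17% as positive. Tapbp then had -0.64 ± 0.08 and Nlrc5 -0.58 ± 0.05 (adjusted p = 7.92e-06 and 4.25e-08). Psmb10, at -0.38 ± 0.13 (adjusted p = 0.0407) with all libraries and -0.24 ± 0.07 without library 81, lost its call without any 1 of 9 other libraries (WT untreated 1 or 4, WT ACM 19 to 22, KO ACM 85, 86 or 88). Its call and that of B2m were lost after TPM scaling (-0.27, adjusted p = 0.222, and -0.18, adjusted p = 0.297) and with no filter (adjusted p = 0.1002 and 0.225), and B2m had -0.09 under quantile normalization. Over all genes 843 interactions were positive and 1097 negative, against 1365 and 445 after TPM scaling and 1525 and 826 with voom. Granulocyte markers moved with genotype, S100a8 and S100a9 being higher in KO than WT ACM cells by 1.43 ± 0.15 and 1.51 ± 0.28, and of the 8 macrophage markers 1 was higher (Mertk, 0.57 ± 0.07) and 3 lower (Fcgr1, -0.95 ± 0.16, Lyz2, -0.63 ± 0.13, and Cd68, -0.24 ± 0.04). The part of these markers in the differences was not tested.

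**Figure D3:**
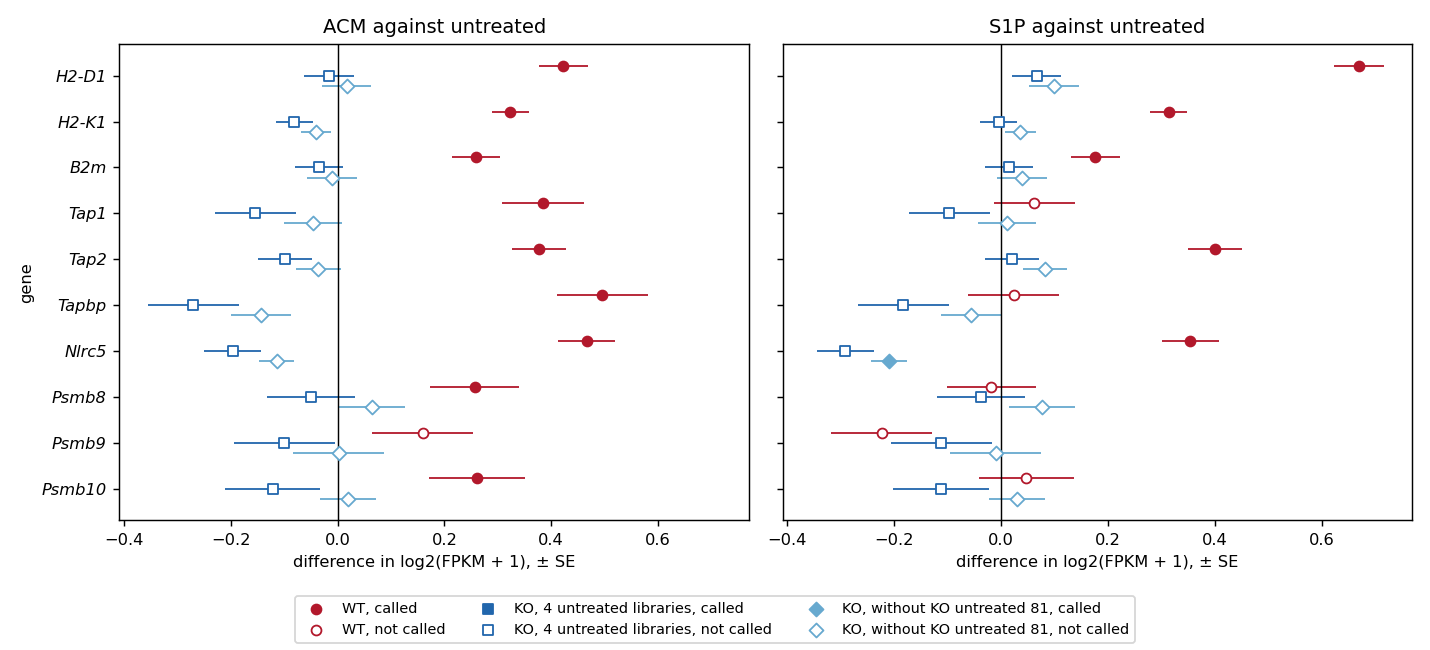
Difference from untreated cells in log2(FPKM + 1), with SE bars (horizontal axis), for each of the 10 genes (vertical axis) under ACM (left) and S1P (right), in WT cells (circles) and KO cells with (squares) and without (diamonds) the library labelled KO untreated 81; filled symbols passed at an adjusted p under 0.05. WT circles are filled for 9 genes under ACM and 5 under S1P, and the only filled KO symbol is Nlrc5 under S1P without library 81, at -0.21.

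S1P was the next treatment, and in WT cells it raised 5 of the 10 genes and lowered 0. Over all genes 52.4% were called, 25.2% as higher and 27.2% as lower, so the count of members is to be read against a response across much of the transcriptome. The median of the 10 was 0.12, beside 0.00 over all genes. As deposited 2869 of all genes were higher and 3095 lower, against 2156 and 3275 after TPM scaling and 3377 and 2681 with median scaling. The 5 genes were both heavy chains, B2m, Tap2 and Nlrc5. H2-D1 had 1267, 1403, 1467 and 1319 with S1P, 59.4% above its untreated mean (0.67 ± 0.05, adjusted p = 1.7e-10). H2-K1 had 709, 703, 703 and 674, a rise of 0.31 ± 0.03 (adjusted p = 1.15e-07). Tap2 rose by 0.40 ± 0.05 (adjusted p = 8.3e-07) to 28.1, 26.1, 26.8 and 23.9, and Nlrc5 by 0.35 ± 0.05 (adjusted p = 8.02e-06) to 14.2, 14.1, 14.7 and 13.9. For these 4 genes no S1P library overlapped an untreated one, but the share of all genes without overlap was not counted. B2m had 2875, 2647, 2627 and 2549.5 and a rise of 0.18 ± 0.05 (adjusted p = 0.00229), which was -0.19 and called as lower under quantile normalization (adjusted p = 0.0305) and not called after TPM scaling or with no filter (adjusted p = 0.181 and 0.194).

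The other transporter subunit did not follow Tap2 under S1P. Tap1 had 35.9, 36.0, 31.3 and 31.6, a difference of 0.06 ± 0.08 (adjusted p = 0.521), and Tapbp had 130.2, 118, 109 and 103, a difference of 0.02 ± 0.08 (adjusted p = 0.837). Psmb8 had 62.0, 58.2, 54.7 and 47.3 (-0.02 ± 0.08, adjusted p = 0.877) and Psmb10 45.5, 45.7, 43.6 and 44.2 (0.05 ± 0.09, adjusted p = 0.688). Psmb9 had 20.01, 19.2, 16.0 and 14.2, a difference of -0.22 ± 0.09 that did not pass (adjusted p = 0.0520). It passed as lower with a filter at FPKM 5, after TPM scaling and with voom (-0.22, -0.27 and -0.23, adjusted p = 0.0429, 0.0494 and 0.0273), and without WT S1P 25 or 26, KO ACM 87 or the library labelled KO untreated 81 (-0.29, -0.27, -0.22 and -0.22). The WT S1P libraries were uneven, with libraries 25 and 26 above 27 and 28 for Tapbp, Psmb8, Psmb9, Tap1, Psmb10, B2m and H2-K1. For H2-K1 the gap was small (703.2 in library 26 against 702.5 in library 27). H2-D1, Tap2 and Nlrc5 did not have this order.

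In KO cells S1P changed 0 of the 10 genes with limma, where 0.00879% of all genes were called. At an unadjusted p under 0.05 there were 2 of the 10, beside 1167 of all 11377 genes. Nlrc5 came nearest, at 8.97, 9.14, 8.87 and 9.56 with S1P, all below the KO untreated libraries (-0.29 ± 0.05, adjusted p = 0.0742). It was called as lower, the direction opposite to that in WT cells, with library 81 left out (-0.21 ± 0.03, adjusted p = 0.0047, where 0.185% of all genes were called, 0.159% as lower and 0.0264% as higher), without KO untreated 79 (-0.32, adjusted p = 0.0312), with a filter at FPKM 5 (adjusted p = 0.0425) and with voom (-0.31, adjusted p = 0.01). H2-D1 had 988, 1035, 942 and 961 with S1P in KO cells, with a difference of 0.07 ± 0.05 that did not pass (adjusted p = 0.655; 0.10 ± 0.05 without library 81, adjusted p = 0.538).

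Under S1P, KO cells had less of 4 of the 10 transcripts than WT cells and more of 0, where 52.4% of all genes were called, 25.4% as lower and 26.9% as higher. Over all genes 3066 were higher and 2892 lower, against 2331 and 3268 after TPM scaling and 2718 and 3332 with median scaling. The 4 members called were Nlrc5 (-0.59 ± 0.05, adjusted p = 8.54e-09), H2-D1 (-0.47 ± 0.05, adjusted p = 2.52e-08), Tap2 (-0.38 ± 0.05, adjusted p = 1.7e-06) and H2-K1 (-0.20 ± 0.03, adjusted p = 4.78e-05). Each had no overlap between the groups, and the share of all genes without overlap was not counted. B2m, which did not pass, had 2608, 2808, 2731 and 2812 in KO S1P cells (0.04 ± 0.05, adjusted p = 0.536), and was higher by 0.25 under quantile normalization (adjusted p = 0.00594). Tap1 (-0.15 ± 0.08, adjusted p = 0.0978) and Psmb10 (-0.19 ± 0.09, adjusted p = 0.0745) did not pass with all libraries. Both passed when library 81 was left out, which is in neither group but adds to the shared spread (adjusted p = 0.0143 and 0.00185), with median scaling (-0.19 and -0.23, adjusted p = 0.0454 and 0.0396) and with voom (adjusted p = 0.0486 and 0.0367). Tap1 also passed after TPM scaling (-0.21, adjusted p = 0.0376), and Psmb10 without KO S1P 92 (-0.24, adjusted p = 0.0426) and in a fit on these 2 groups only (adjusted p = 0.00819).

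The genotype by S1P interaction was called for 5 of the 10 genes, each with a smaller value in KO cells, where 41.9% of all genes were called, 19.4% in that direction and 22.5% in the other. These were Nlrc5 (-0.65 ± 0.08), H2-D1 (-0.60 ± 0.07), Tap2 (-0.38 ± 0.07), H2-K1 (-0.32 ± 0.05) and B2m (-0.16 ± 0.06, adjusted p = 0.0474). Over all genes 2564 interactions were positive and 2208 negative, against 2130 and 1772 after TPM scaling and 2216 and 2648 with median scaling. With library 81 left out the call of B2m was lost (-0.14 ± 0.06, adjusted p = 0.0923) and 4 remained, where 41.6% of all genes were called, 19.2% as negative and 22.3% as positive. B2m was also not called with a pseudocount of 0.1 (adjusted p = 0.0511), with no filter, after TPM scaling or without any 1 of 13 other libraries, and it was 0.03 under quantile normalization. The granulocyte marker sums given above separate KO S1P from WT S1P libraries too, and of the 8 macrophage markers 5 were higher and 1 lower in KO S1P cells. Those of smallest adjusted p were Mertk (0.83 ± 0.07), Itgam (0.88 ± 0.10), Csf1r (0.44 ± 0.05) and Adgre1 (0.47 ± 0.06), and the part of these markers in the differences was not tested.

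ACM and S1P were also compared with each other, though not at matched doses. Of the 10 genes 4 were higher and 1 lower in WT ACM than WT S1P cells, where 41.5% of all genes were called, 23% as higher and 18.5% as lower. Higher with ACM were Tapbp (0.47 ± 0.08, adjusted p = 0.000131), Psmb9 (0.38 ± 0.09, adjusted p = 0.00242), Tap1 (0.32 ± 0.08, adjusted p = 0.00174) and Psmb8 (0.27 ± 0.08, adjusted p = 0.0105). H2-D1 was lower with ACM by -0.25 ± 0.05 (adjusted p = 0.000197). The Psmb8 call was lost without WT S1P 28 (0.20, adjusted p = 0.0587) and after TPM scaling (0.20, adjusted p = 0.107). H2-K1 (0.01 ± 0.03) and Tap2 (-0.02 ± 0.05) did not pass, but H2-K1 was lower with ACM by -0.21 under quantile normalization (adjusted p = 9.87e-07). Nlrc5 (0.11 ± 0.05, adjusted p = 0.101) and Psmb10 (0.21 ± 0.09, adjusted p = 0.0606) did not pass with all libraries and passed once library 81 was left out (adjusted p = 0.00567 and 0.00113) and in a fit on these 2 groups only (adjusted p = 0.0324 and 0.00293). Psmb10 also passed with a filter at FPKM 5 (adjusted p = 0.0489). B2m did not pass (0.08 ± 0.05, adjusted p = 0.158) and did without WT S1P 25 (0.12, adjusted p = 0.0379) and under quantile normalization (0.18, adjusted p = 0.048). Over all genes 2617 were higher and 2109 lower, against 1598 and 2656 after TPM scaling. In KO cells limma called 0 of the 10 between ACM and S1P, and voom called 0, where limma called 0.0352% of all genes. At an unadjusted p under 0.05 with limma there were 2 of the 10, beside 775 of all 11377 genes. The differences ran from -0.12 (Tap2) to 0.10 (Nlrc5).

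Without treatment 1 of the 10 genes differed between the genotypes. This was B2m, higher in KO untreated cells at 2756, 2670.5 and 2570.3, with 2849 in library 81 (0.20 ± 0.05, adjusted p = 0.0231), where 2.47% of all genes were called, 1.26% as higher and 1.21% as lower. Without the library labelled KO untreated 81 B2m was higher by 0.17 ± 0.05 (adjusted p = 0.0242) and Psmb10 lower by -0.18 ± 0.05 (adjusted p = 0.0403), at 37.7, 38.0 and 38.8 against 40.3 to 45.7, where 8.15% of all genes were called, 4.12% as higher and 4.03% as lower. The B2m call was lost without WT untreated 1, 2 or 4 or KO untreated 79 or 80 (0.19 to 0.20, adjusted p = 0.0518 to 0.0682), with no filter (adjusted p = 0.409), after TPM scaling (0.14, adjusted p = 0.374), under quantile normalization (0.22, adjusted p = 0.103) and in a fit on the 2 groups only (adjusted p = 0.107). H2-K1 (0.12 ± 0.03, adjusted p = 0.0677) passed with voom (0.11, adjusted p = 0.0342) and under quantile normalization (0.16, adjusted p = 0.00121). Over all genes 143 were higher and 138 lower in KO untreated cells, against 40 and 141 after TPM scaling, 140 and 238 with voom and 164 and 104 with median scaling.

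Because FPKM is per length, the immunoproteasome subunits could be set against the constitutive subunits they replace within each library. The ratio Psmb8/Psmb5 was 0.629, 0.512, 0.544 and 0.534 in WT untreated cells, 0.611, 0.591, 0.609 and 0.572 with ACM, and 0.464, 0.385, 0.351 and 0.311 with S1P, all S1P values being lower than the others. Psmb9/Psmb6 was 0.202 to 0.218 untreated, 0.195 to 0.2201 with ACM and 0.111 to 0.171 with S1P. In the KO groups Psmb8/Psmb5 was 0.489 to 0.540 and Psmb9/Psmb6 0.181 to 0.206, apart from library 81 (0.638 and 0.232). The lower ratios under S1P came with more of the constitutive subunits, Psmb5 rising by 0.54 ± 0.05 (adjusted p = 2.43e-08) and Psmb6 by 0.39 ± 0.06 (adjusted p = 8.16e-06), while Psmb7 (0.00 ± 0.05, adjusted p = 0.951) did not pass. Of the immunoproteasome subunits in these ratios, Psmb8 differed by -0.02 and Psmb9 by -0.22. Neither passed with all libraries, though Psmb9 passed as lower under some settings given above. Psmb10/Psmb7 stood higher with ACM, at 2.04 to 2.30 against 1.74 to 1.89 untreated.

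The light chain was compared with the summed heavy chains in the same way. B2m/(H2-D1+H2-K1) was 1.59 to 1.73 in WT untreated cells, 1.51 to 1.55 with ACM and 1.21 to 1.45 with S1P, and 1.64 to 1.84 over the 3 KO groups. The ratio of H2-D1 to H2-K1 was 1.79 to 2.09 with S1P, against 1.46 to 1.62 untreated and 1.61 to 1.65 with ACM. The 4 ratios were compared in 9 pairs of groups with exact 2-sided permutation tests over 70 arrangements, 36 tests in all. The smallest exact p that 4 against 4 libraries allow is 0.0286. The log2 ratios differed at that p between WT S1P and WT untreated cells for Psmb8/Psmb5 (-0.57 ± 0.14), Psmb9/Psmb6 (-0.63 ± 0.15) and B2m over the heavy chains (-0.36 ± 0.06), and between WT ACM and WT untreated cells for Psmb10/Psmb7 (0.23 ± 0.05) and B2m over the heavy chains (-0.13 ± 0.03). Between KO S1P and WT S1P cells they differed at that p for all 4 ratios, with 0.48 ± 0.12 for Psmb8/Psmb5, 0.50 ± 0.15 for Psmb9/Psmb6, -0.12 ± 0.03 for Psmb10/Psmb7 and 0.41 ± 0.06 for B2m over the heavy chains. Between KO ACM and WT ACM cells they did for Psmb8/Psmb5 (-0.21 ± 0.04), Psmb10/Psmb7 (-0.38 ± 0.06) and B2m over the heavy chains (0.20 ± 0.03). WT ACM and WT S1P cells differed at that p for all 4, by 0.67 ± 0.12, 0.64 ± 0.15, 0.19 ± 0.05 and 0.24 ± 0.06 in the same order. These were 16 of the 36 tests, and adjusted over all 36 each became p = 0.0643 (exact permutation), so 0 passed. With a smallest p of 0.0286, no ratio could pass alone over 36 tests, however far its groups stood apart. That 0 passed therefore does not show that the ratios were alike.

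**Figure D4:**
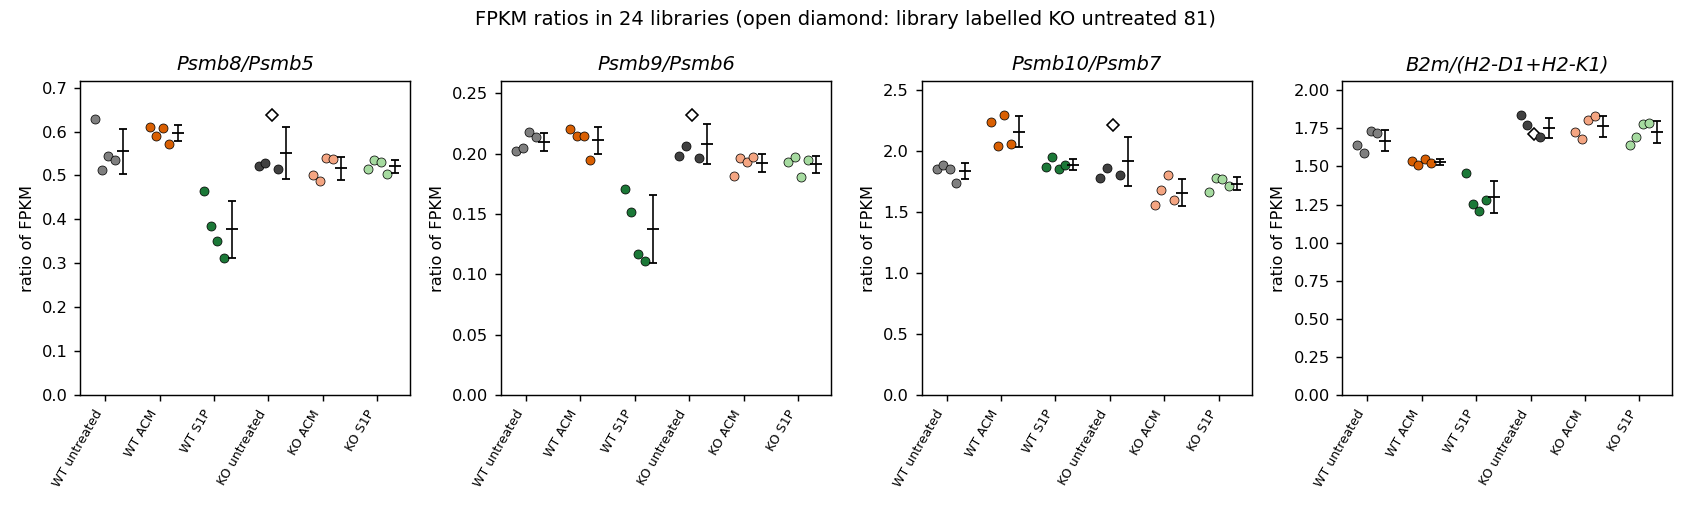
Ratios of FPKM within a library (vertical axis, linear, from 0) in the 4 libraries of each of 6 groups (horizontal axis), with points for libraries, bars for the mean and SD of all 4, and an open diamond for the library labelled KO untreated 81. WT S1P libraries lie lowest for Psmb8/Psmb5 (0.311 to 0.464), Psmb9/Psmb6 (0.111 to 0.171) and B2m/(H2-D1+H2-K1) (1.21 to 1.45), and WT ACM libraries lie high for Psmb10/Psmb7 (2.04 to 2.30).

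Other genes of the pathway were followed as lists. Of 17 further class I and class I-like heavy chains 12 passed the filter on low values, and under ACM in WT cells 6 rose and 1 fell, beside 12.2% higher and 9.85% lower over all genes. The nonclassical chains H2-T23 (0.57 ± 0.08), whose product Qa-1 binds receptors of natural killer cells, and H2-T22 (0.49 ± 0.09) rose, as did H2-Q6 (0.42 ± 0.08) and H2-Q7 (0.41 ± 0.08), with adjusted p from 3.35e-05 to 0.00112. Of the 7 genes of assembly and trimming in the endoplasmic reticulum 3 rose and 0 fell, namely the chaperone Calr (0.38 ± 0.08), the tapasin homologue Tapbpl (0.38 ± 0.07) and the oxidoreductase Pdia3 (0.24 ± 0.06), which is bound to tapasin in the loading complex. Of 5 proteasome activators and assembly factors 2 rose, Psme1 (0.25 ± 0.06) and Psme2 (0.36 ± 0.09), the subunits of the interferon-inducible cap of the proteasome. Of the 11 structural subunits of the proteasome core 0 were called with limma, with differences for the 4 genes of smallest adjusted p from -0.06 (Psma1) to 0.12 (Psma3).

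Upstream of the pathway, 6 of 17 tested regulators of class I transcription rose under ACM in WT cells and 1 fell, beside the same 12.2% and 9.85% over all genes. Those with the smallest adjusted p were the NF-kB subunits Nfkb2 (0.19 ± 0.03) and Relb (0.33 ± 0.07), the myeloid factor Irf8 (0.18 ± 0.04) and Stat2 (0.46 ± 0.10), a carrier of interferon signals. Of 7 interferon receptors and kinases 2 rose and 1 fell, by at most 0.17 in size. Of 13 interferon-stimulated genes 12 rose and 0 fell with a median of 0.84, among them Irf7 (1.05 ± 0.14) and Rsad2 (1.15 ± 0.22). Class II genes did not pass in this comparison, 0 of 6 being called with limma. In KO ACM against WT ACM cells 4 of 6 class II genes were higher, with H2-Eb1 at 1.00 ± 0.16 and H2-Aa at 0.88 ± 0.14, where 8 of 12 tested heavy chains, 4 of 7 assembly genes, 3 of 5 proteasome activators and 12 of 13 interferon-stimulated genes were lower. Over all genes 12.5% were higher and 15.5% lower in that comparison. Of the heavy chains 3 were higher there, with Fcgrt, the neonatal Fc receptor, at 0.39 ± 0.06. H2-Eb1 and H2-Aa were already higher in KO than WT untreated cells with all libraries, by 0.61 ± 0.16 and 0.54 ± 0.14 (limma adjusted p = 0.0473 and 0.0469). Their genotype by ACM interactions were not called (0.39 and 0.33, limma adjusted p = 0.254 and 0.273). These values include the library labelled KO untreated 81, which had an FPKM of 6.77 for H2-Eb1 and 5.66 for H2-Aa. The other KO untreated libraries had 14.8 to 15.6 and 10.8 to 12.3, and KO ACM libraries 15.2 to 16.5 and 10.9 to 12.1. Differences and interactions of these genes without library 81 are not given here.

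With S1P in WT cells 4 of the 12 heavy chains rose, with H2-Q7 (0.64 ± 0.08), H2-Q6 (0.61 ± 0.08) and H2-Q4 (0.37 ± 0.04) among them, and 3 fell, with Fcgrt at -0.42 ± 0.06. Over all genes 25.2% rose and 27.2% fell, and the list counts of this comparison are to be read beside these shares. In the endoplasmic reticulum list Tapbpl (0.44 ± 0.07) and Calr (0.28 ± 0.08) rose, and the peptide-trimming enzyme Erap1 (-0.15 ± 0.05) and Uggt1 (-0.10 ± 0.04) fell. Of the interferon-stimulated genes 4 of 13 rose (8 without the library labelled KO untreated 81), and of the class II genes 2 fell (4 without it), with Cd74, the invariant chain, at -0.45 ± 0.09. Over all genes 5964 were called with all libraries and 5335 to 6171 with 1 library left out. The library labelled KO untreated 81 is in neither group, so leaving it out changed the shared spread and not these differences. The shares over all genes by direction are with all libraries, and those without library 81 are not given here. Relb (0.45 ± 0.07) and Nfkb2 (0.37 ± 0.03) rose under S1P, while the interferon gamma receptor chains moved apart, Ifngr1 by -0.43 ± 0.06 and Ifngr2 by 0.35 ± 0.04. In KO S1P against WT S1P cells all 6 class II genes were higher, with Cd74 at 0.72 ± 0.09, and 7 of 13 interferon-stimulated genes were lower (10 without library 81), beside 26.9% higher and 25.4% lower over all genes. In that comparison 5958 of all genes were called with all libraries and 5390 to 6136 with 1 library left out. Here too library 81 is in neither group, and the shares by direction are with all libraries. In neither KO treatment comparison was any gene of the 9 lists called with all 4 KO untreated libraries.

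Genes whose pattern over the 5 group differences from WT untreated cells was nearest to the median of the 10 were found by root mean square difference, without the library labelled KO untreated 81 and among genes with a mean FPKM of at least 5. They were Adar (0.0297), Dnajb11 (0.0315), Asph (0.0350), Ceacam1 (0.0360), Il2rg (0.0364) and Sp140 (0.0373). Adar, an RNA editing enzyme with an interferon-inducible form, had 0.33 under WT ACM and 0.09 under WT S1P, beside 0.35 and 0.12 for the median of the 10. For Nlrc5 alone the nearest were Flrt2 (0.0642), Slc16a10 (0.0752), Parp10 (0.0797), Ifi207 (0.0806), Adap2 (0.0822) and Slc25a22 (0.0826). The 5 differences share the same 4 WT untreated libraries, so they are not independent of each other.

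Some values can be touched by reads of other genes. Tap1 and Psmb9 overlap on opposite strands by 212 exon bases, 3.87% of the Tap1 and 5.79% of the Psmb9 exon length, and Tapbp shares 149 exon bases with Zbtb22 on the same strand. No source used here states whether the counting used strand. Of the 100-base words of its transcripts, H2-D1 shares 3.59% with other genes, most with H2-Q1, and H2-K1 0.957%, most with H2-Q10. Tapbp shares 0.0775%, and the other 7 genes share none. H2-Q6 and H2-Q7 belong to the same family of near-identical copies, so their separate values are uncertain.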

How the data were processed

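Messenger RNA was sequenced in 24 libraries, 4 in each of 6 groups taken from the labels. The authors deposited FPKM for 54532 genes. Per the submitters' processing notes the tools included StringTie, featureCounts, HISAT2, STAR, STAR-Fusion, DESeq and edgeR on mm10 and GRCm38, with no roles, versions or strand setting. GENCODE M21 (GRCm38) named 54495 identifiers, 37 had no match, and promoter windows are from RefSeq.

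Genes with FPKM of 1 or more in 4 or more libraries (11377) were tested on log2(FPKM + 1), which understates changes of low genes, with limma 3.58.1 in R 4.3.3. The fit had 6 group means and a mean-variance trend, with 11 comparisons. Adjusted p-values are Benjamini-Hochberg over all genes, called under 0.05, and SE is from this fit. Ratios were tested with exact permutation in SciPy 1.17.1 (Python 3.11.15). Scripts were tested on simulated data.

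Alternatives were a pseudocount of 0.1, no filter, a filter at FPKM 5, TPM, median and quantile scaling, a fit on 2 groups, and leaving out each library. Reads were recovered from FPKM (96.4 to 96.7% of values whole, tolerance 0.05), and limma voom on them was chosen after seeing the data. The members and lists were chosen with earlier results of these data known. Named are all 10 members, in each list up to 4 genes of smallest adjusted p, and the 6 nearest profiles.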

Additional observations from a re-analysis of the deposited data

Results flagged for a closer look

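Outliers were sought in 60 groups of 4 libraries for the 10 genes and in 24 groups of ratios, by comparing the gap of the highest or lowest library with the range of its group with Dixon's test. Chance flags a share of about 0.05 of such groups, and 8 stood out. The library labelled KO untreated 81 stood above the other KO untreated libraries with an FPKM of 162 for Tapbp, 13.7 for Nlrc5, 68.1 for Psmb8, 24.6 for Psmb9 and 57.0 for Psmb10, and with a Psmb8/Psmb5 ratio of 0.638. It is also the library whose Trem2 level goes against its label. H2-D1 was low in KO ACM 85, at 866, and Psmb10 was high in KO S1P 92, at 42.9.

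The response to ACM differed between the genotypes by the limma interaction for H2-D1 (-0.44), H2-K1 (-0.41), B2m (-0.29), Tap1 (-0.54), Tap2 (-0.48), Tapbp (-0.77), Nlrc5 (-0.66) and Psmb10 (-0.38), as KO minus WT. The response to S1P differed in the same way for H2-D1 (-0.60), H2-K1 (-0.32), B2m (-0.16), Tap2 (-0.38) and Nlrc5 (-0.65). The interactions share the untreated libraries, among them KO untreated 81.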

How the results depend on the processing

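Of the values of the 10 genes with 1 library left out, 2579 kept direction and call, 15 became called and 46 lost their call. In a comparison of 2 groups, leaving out a library of another group cannot change the difference, only the shared spread. Many of the values that kept their direction could therefore not have changed it. Under the other settings 815 kept both, 18 became called, 23 lost their call and 4 reversed, all 4 with quantile normalization. These were B2m under ACM in WT cells (-0.0090), B2m under S1P in WT cells (-0.19), H2-K1 in WT ACM against WT S1P cells (-0.21) and the S1P interaction of B2m (0.029), and the cause was not tested. In KO S1P against KO untreated cells 0 of the 10 genes were called, but 1 was with a filter at FPKM 5 and 1 with voom on recovered reads, and 0 to 1 with a library left out. In KO against WT untreated cells 1 was called, but 0 with no filter, 0 after TPM scaling, 0 in a fit on the 2 groups only, 2 with voom and 0 to 2 with a library left out. Under ACM in WT cells 9 were called, 6 after TPM scaling or with no filter, 8 with quantile normalization and 7 to 9 with a library left out. Over all genes tested, those called as higher were 1390 of 11377 in the main fit and 484 of 14199 after TPM scaling. They were 1116 of 27013 with no filter and 1216 of 11377 with quantile normalization. Counts over all genes moved most in KO ACM against KO untreated cells (1, and 0 to 8 over the alternatives), KO S1P against KO untreated cells (1, and 0 to 21), KO against WT untreated cells (281, and 33 to 926, with 181 after TPM scaling) and KO ACM against KO S1P cells (4, and 0 to 26). No paired analysis was possible because library numbers in the labels are not shared between groups. Of the 36 ratio tests 16 reached the smallest p that 4 libraries a group allow. After adjustment 0 passed, which no ratio could have done alone at that p.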
